A study of Mus musculus with 6 samples.

Results

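The genes described here are Gas5 and 5 further host genes of small nucleolar RNAs (snoRNAs), Snhg1, Snhg3, Snhg6, Snhg8 and Snhg12. All 13 probe sets that the array annotation pairs with 1 of these symbols alone were taken, of 45037 probe sets other than controls, which makes 6 of the 18193 genes that could be named. There were 4 for Gas5, 5 for Snhg1 and 1 for each of the other 4 genes. A further 2 probe sets that the annotation pairs with a host and a snoRNA gene at once were left out. The genes were picked with their difference between genotypes already known, so that this difference is given below as a description and supports nothing.

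The study compared 3 pools of STAT5 knockout cells with 3 pools of wild type cells. Each pool held Ter119+ fetal liver cells of 3 to 5 mouse embryos of 1 genotype at embryonic day 14.5, and was hybridised to 1 Affymetrix Mouse Genome 430 2.0 array. Ter119 marks maturing red cell precursors, and all groups share this selection. STAT5A and STAT5B are the transcription factors that act below the erythropoietin receptor, and the labels give neither the knockout allele nor the strain. No treatment is named for either group.

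A snoRNA host gene is transcribed and spliced, and its snoRNAs are cut out of the introns and guide chemical modification or cleavage of ribosomal RNA. In non-coding hosts such as Gas5, the spliced RNA has little or no coding capacity, is read by ribosomes all the same and is cleared by nonsense-mediated decay. Many hosts begin with a terminal oligopyrimidine tract, the 5′ sequence through which mTOR controls translation of ribosomal protein mRNAs. For such hosts, a block of translation or growth slows the decay of the RNA, and Gas5 (growth arrest-specific 5) was first found in this way in growth-arrested mouse fibroblasts. In human cells, GAS5 RNA can also bind the glucocorticoid receptor.

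In the RefSeq gene table of the mouse assembly GRCm38.p6, 8 snoRNA genes lie inside Gas5, among them Snord47, and 8 inside Snhg1, among them Snord22. Snhg12 holds 4 (Snora16a, Snora44, Snora61 and Snord99), Snhg3 holds 2 (Snora73a and Snora73b), Snhg6 holds Snord87 and Snhg8 holds Snora24. The probe sets report on the host transcript, and the levels of the snoRNAs themselves are not analysed here.

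The starts of 5 of the 6 genes are shown because some host genes are known for a pyrimidine tract there. Each sequence below runs from 60 bases before an annotated start to 50 bases after its first position, from RefSeq promoter windows of GRCm38.p6, 5′ to 3′ on the strand of the gene. Capitals mark a C followed by at least 4 pyrimidines that begins within 5 bases of the start, and a TATA element, searched on that strand as TATAAA or its variants TATATA and TATTTA, beginning 40 to 20 bases before the start. Gas5 has 2 annotated starts, and the downstream one is given first.
Gas5, chr1:161035106-161035215, plus strand: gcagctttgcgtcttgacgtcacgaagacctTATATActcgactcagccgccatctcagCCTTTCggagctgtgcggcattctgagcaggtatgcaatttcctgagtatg
Gas5, upstream start, chr1:161034541-161034650, plus strand: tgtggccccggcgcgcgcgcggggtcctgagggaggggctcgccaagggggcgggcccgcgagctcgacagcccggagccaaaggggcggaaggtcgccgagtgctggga
Snhg1, chr19:8723427-8723536, plus strand: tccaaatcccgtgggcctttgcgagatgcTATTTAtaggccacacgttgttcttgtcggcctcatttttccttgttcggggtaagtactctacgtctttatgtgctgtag
Snhg3, chr4:132353637-132353746, minus strand: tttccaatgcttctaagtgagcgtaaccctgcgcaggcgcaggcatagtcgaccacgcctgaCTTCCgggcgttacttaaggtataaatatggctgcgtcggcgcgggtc
Snhg8, chr3:123508287-123508396, minus strand: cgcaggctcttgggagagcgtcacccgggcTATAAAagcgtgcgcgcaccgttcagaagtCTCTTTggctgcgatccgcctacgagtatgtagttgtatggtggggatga
Snhg12, chr4:132308618-132308727, plus strand: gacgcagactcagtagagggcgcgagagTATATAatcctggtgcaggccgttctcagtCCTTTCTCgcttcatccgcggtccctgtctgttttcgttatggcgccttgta

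Both features stood together at the downstream Gas5 start, Snhg8 and Snhg12, that is at 3 of the 5 genes, against 0.747% of 27025 genes with a promoter window. A pyrimidine tract so defined was found at 4 of the 5 genes, against 18.6% of all genes, and a TATA element at 4 of the 5, against 4.03%. Snhg1 had the TATA element but no tract so defined, because the long pyrimidine run just after its start opens with T and not C. Snhg3 had the tract but no TATA element in that interval. The upstream Gas5 start had neither. Among the ribosomal protein genes that host snoRNAs, 5 of 16 had the tract and 1 of 16 the TATA element. Other non-coding hosts had each feature at 2 of 13 genes (15.4%), and other protein-coding hosts had both at 0 of 18. The motif bound by STAT proteins, written TTCNNNGAA and the same on both strands, was in none of the 6 windows of 300 bases, against 9.55% of all genes. The E-box CACGTG, also the same on both strands, was in none of the 6, against 8.09%. These searches were chosen after the sequences had been seen, and a match or its absence is a description of these letters in these windows.

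Median signals were 177.1 to 184.7 over the knockout arrays and 175.4 to 215.8 over the wild type arrays, the highest in wild type replicate 2. The 3′ to 5′ ratio of the actin control probe sets lay between 0.988 and 1.04 in knockout and between 0.965 and 0.995 in wild type. The control level, the 95th percentile of probe sets for bacterial transcripts over all arrays, was a signal of 162.5. Both genotype means of all 13 host gene probe sets lay above it, and none exceeded 11.8% of the highest signal of its array. All 4 probe sets of the targeted genes Stat5a and Stat5b were lower in every knockout array than in every wild type array, by between -3.77 and -1.29 on the log2 scale, and in 3 of the 4 the knockout mean was below the control level. The sources used here do not say which part of either gene was deleted. In bulk RNA of this kind, a different mix of cells and a different amount of RNA per cell cannot be told apart.

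Every host gene probe set had a higher mean in knockout than in wild type pools. The differences ran from 0.27 to 1.18 on the log2 scale with a median of 0.53, where the median over all probe sets was -0.07. In 9 of the 13, every knockout array lay above every wild type array, as did 6.84% of all probe sets and 9.91% of those above the control level in either genotype. These 9 measure only Gas5, Snhg1 and Snhg8. With the brightest probe set of each gene it was 3 of 6 genes, against 7.02% of all genes. When limma allowed the variance to follow mean signal (its trend option), 2 of the 13 passed an adjusted p of 0.05 as higher in knockout, both of them Gas5, where 0.0755% of all probe sets did. Without the trend limma called 0 of the 13, and 0% of all probe sets, and an unadjusted p under 0.05 was reached by 6 of the 13 and by 8.01% of all probe sets. As the genes were chosen from this contrast, nothing is read from these counts.

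**Figure D1:**
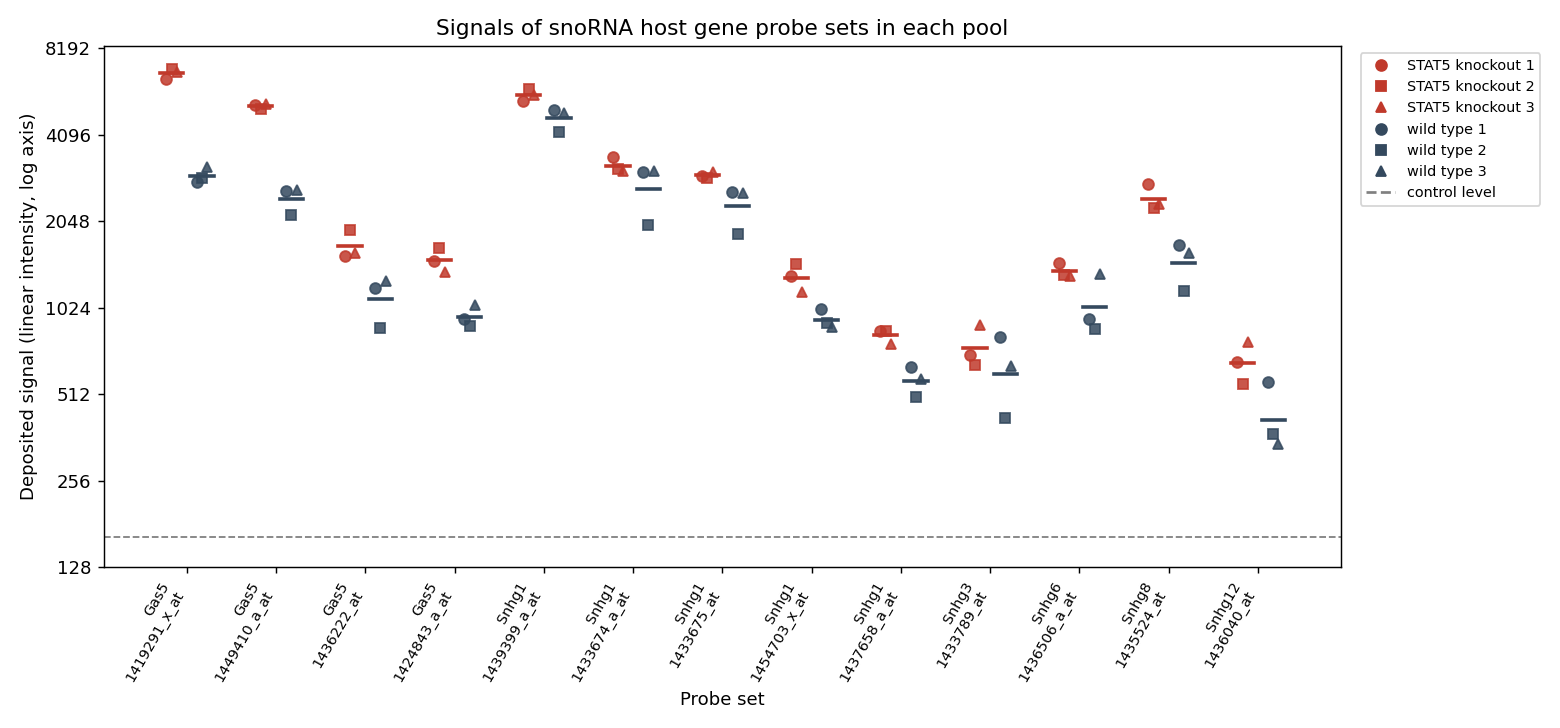
Deposited signal (linear intensity on a log2 axis) of the 13 host gene probe sets in each of the 3 STAT5 knockout pools (red, left) and 3 wild type pools (dark blue, right), with bars at the means of log2 signal. The 2 brightest Gas5 probe sets separate the genotypes most widely, from 5020.8 to 6906.7 in knockout against 2156.3 to 3151.1 in wild type, and all values lie above the control level of 162.5 (dashed).

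Gas5 had the widest separation. At its brightest probe set, 1419291_x_at, knockout pools read 6417.3, 6906.7 and 6735.7 and wild type pools 2802.3, 2898.5 and 3151.1. The lowest knockout pool was far above the highest wild type pool, and the 3 pools of each genotype lay close together. In log2 signal this was 12.71 ± 0.05 in knockout and 11.53 ± 0.09 in wild type (SD, n = 3 each), a difference of 1.18 (SE 0.19), or 2.27-fold. The second probe set, 1449410_a_at, read 5169.6, 5020.8 and 5217.6 in knockout and 2595.7, 2156.3 and 2625.8 in wild type. The groups were again apart, with a difference of 1.07 (SE 0.20), or 2.10-fold, and a spread between knockout pools of 0.03 log2 (SD) against 0.16 between wild type pools.

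The other 2 Gas5 probe sets showed a smaller difference. Probe set 1436222_at read 1551.3, 1907.6 and 1586.0 in knockout and 1202.1, 870.2 and 1266.8 in wild type, a difference of 0.61 (SE 0.24). Probe set 1424843_a_at read 1484.2, 1645.6 and 1364.6 in knockout and 931.6, 881.6 and 1044.0 in wild type, a difference of 0.65 (SE 0.20). In both, every knockout pool exceeded every wild type pool, though by less than in the brighter pair. Within each array, the log2 ratio of 1419291_x_at to 1436222_at was 2.05, 1.86 and 2.09 in knockout and 1.22, 1.74 and 1.31 in wild type. The ratio of 1419291_x_at to 1424843_a_at was likewise higher in every knockout array, with a mean of 2.16 in knockout and 1.63 in wild type, whereas that of 1419291_x_at to 1449410_a_at overlapped between genotypes, with a mean of 0.38 in knockout and 0.27 in wild type. By the size of the difference, the Gas5 probe sets thus fell into 2 pairs. The part of the transcript that each probe set reads is not analysed here, and names ending in _x_at or _a_at mark sets whose probes may also match other transcripts or several transcripts of the gene. At the Gas5 locus, RefSeq places the protein-coding gene Zbtb37 as overlapping. Its brightest probe set was below the control level in both genotypes.

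Snhg1, host of a cluster of box C/D snoRNAs, was measured by 5 probe sets with differences between 0.27 and 0.53. Its brightest, 1439399_a_at, read 5339.3, 5915.6 and 5634.7 in knockout and 5004.2, 4185.5 and 4882.8 in wild type, a difference of 0.27 (SE 0.20). The groups did not overlap, yet knockout replicate 1 and wild type replicate 1 were close. The largest Snhg1 difference was that of 1437658_a_at, at 0.53 (SE 0.20), with 846.8, 851.7 and 764.5 in knockout and 634.4, 501.1 and 578.0 in wild type. Probe sets 1454703_x_at and 1433675_at, with differences of 0.49 (SE 0.21) and 0.36 (SE 0.23), also kept the genotypes apart. The fifth, 1433674_a_at, overlapped: it read 3422.0, 3100.7 and 3063.0 in knockout and 3041.2, 1989.4 and 3066.6 in wild type. Its difference of 0.27 (SE 0.25) rested on wild type replicate 2, without which it was 0.06. That of 1433675_at was 0.20 without the same pool.

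Snhg8, host of the box H/ACA snoRNA Snora24, had the largest difference among the genes with 1 probe set. It read 2764.1, 2269.0 and 2342.8 in knockout and 1694.3, 1167.7 and 1590.4 in wild type. All 3 knockout pools lay above the wild type pools, with 11.26 ± 0.15 log2 signal in knockout and 10.52 ± 0.29 in wild type (SD, n = 3 each), a difference of 0.74 (SE 0.24), or 1.67-fold. Snhg12 read 663.1, 554.4 and 776.9 in knockout and 563.9, 370.7 and 343.2 in wild type, a difference of 0.66 (SE 0.28), or 1.59-fold. Here the groups overlapped, because wild type replicate 1 exceeded knockout replicate 2.

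Snhg6 and Snhg3 were not separated by genotype. Snhg6, host of Snord87, read 1466.7, 1329.8 and 1314.0 in knockout and 934.1, 862.4 and 1338.9 in wild type, a difference of 0.42 (SE 0.25). Wild type replicate 3 reached the knockout range and the other wild type pools did not. Snhg3, host of the Snora73 genes that act in ribosomal RNA processing, read 699.3, 647.5 and 887.9 in knockout and 806.8, 421.3 and 640.4 in wild type, a difference of 0.30 (SE 0.31). That difference is smaller than its standard error. It became 0.04 without wild type replicate 2 and 0.51 without wild type replicate 1.

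**Figure D2:**
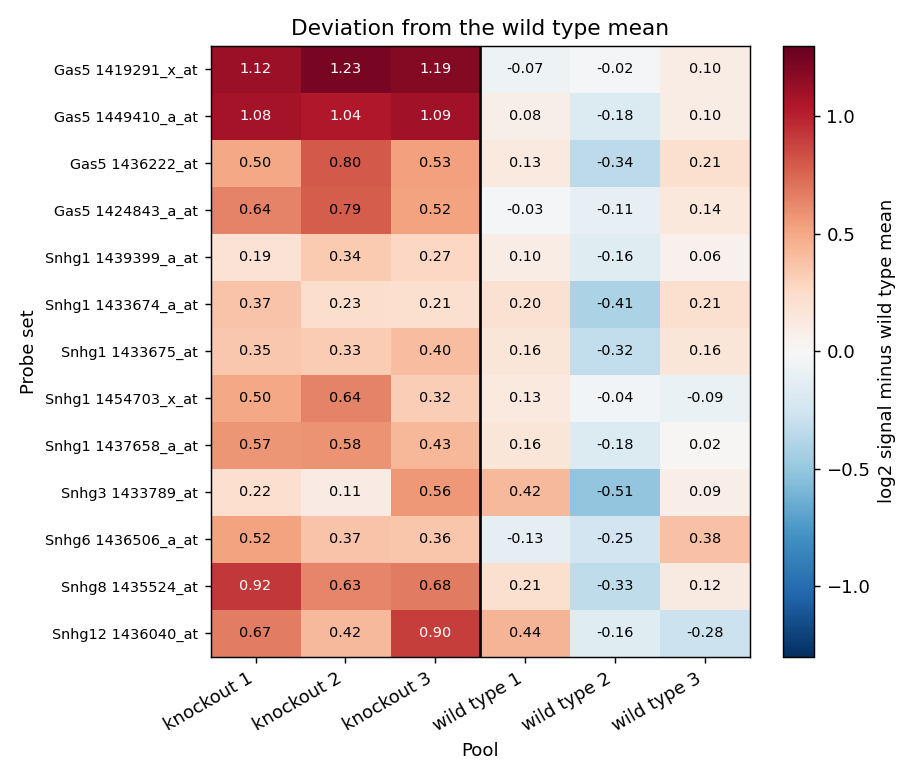
Log2 signal of each host gene probe set (rows) in each pool (columns, knockout left of the line) minus the mean of the 3 wild type pools, with the value printed in each cell. All knockout cells are positive, and the column of wild type replicate 2 is negative throughout, between -0.51 and -0.02.

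The wild type pools differed among themselves in the same way over most probe sets. Wild type replicate 2 was the lowest wild type pool in 10 of the 13 probe sets and lay below the wild type mean in all 13. The summed signal of the 6 genes, each at its brightest probe set, came to 17350, 17623 and 17692 for knockout and to 11806, 9906 and 11947 for wild type. The knockout sums lay close together, and the wild type sum of replicate 2 was the lowest. Without wild type replicate 2, all 13 differences were above 0, with a median of 0.44. Leaving out an array cannot make separate groups overlap, so the count of 9 of 13 could only stay or rise. It was 9 without wild type replicate 2, where 11.5% of all probe sets then had every knockout array above every wild type array. Over the other arrays left out 1 at a time, it was between 9 and 11, where the share of all probe sets ran from 10.4% to 11.7%. Of 13 settings, the fit as designed, scalings and left-out arrays among them, all gave a difference above 0 for every probe set. Leaving out the dimmer 50% of probe sets and adding a block for the replicate number cannot change these differences.

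**Figure D3:**
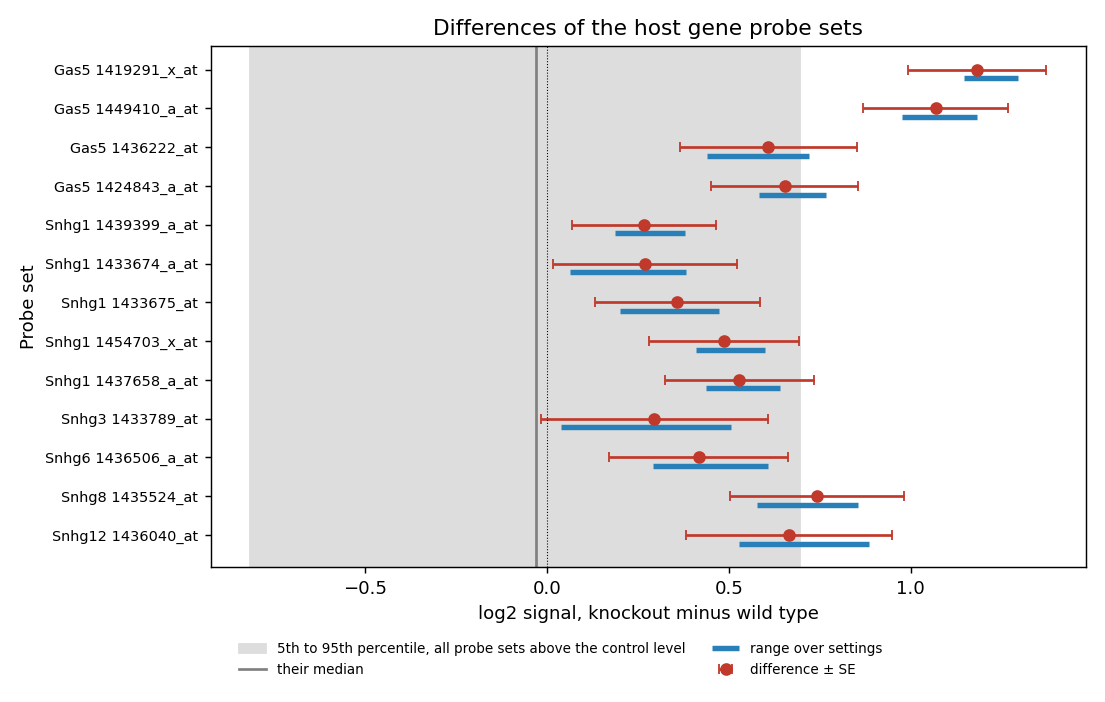
Difference in log2 signal, knockout minus wild type, of each host gene probe set (points, with the standard error of limma's fit as bars), its range over 13 settings (blue), and, in grey, the 5th to 95th percentile (-0.82 to 0.69) and median (-0.03) of all probe sets with a mean above the control level in either genotype. The brighter Gas5 pair, at 1.18 and 1.07, and Snhg8, at 0.74, lie beyond the grey band, and the other 10 lie within it.

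There were 25209 probe sets with a mean above the control level in either genotype, and most hosts lay within their middle range. Their 95th percentile was 0.69 and their 99th 1.26, which leaves the brighter Gas5 pair between these values, Snhg8 just past the lower one and the other 10 probe sets under it. Centring each array on its median moved the median of all probe sets from -0.07 to 0.04 and the Gas5 difference from 1.18 to 1.29.

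Summed signals of cell type markers are given here by genotype, and their part in the host gene differences was not tested. All 8 measured erythroid markers, among them Slc4a1, Tfrc and Rhag, were far above the control level, as is known of Ter119+ cells, and all 8 had a lower mean in knockout, or 7 of 8 after quantile normalization or median centring. Their summed signal was 206568 to 259541 in knockout and 253395 to 265192 in wild type. Immature progenitor markers had 4 of 6 genes, Kit, Myb, Myc and Cd44, higher in every knockout than in every wild type array, against 7.02% of all genes. The other 2, Gata2 and Cd34, differed by -0.03 and -0.15, Cd34 with both means below the control level. The sum of all 6 was 6905 to 8214 in knockout and 3581 to 4186 in wild type. Hepatocyte markers were lower in all 10 measured genes, 7 of them without overlap, where 9.85% of all genes had every knockout array below every wild type array. Their sum was 127161, 136049 and 139884 in knockout and 188614, 250809 and 148104 in wild type, the highest in wild type replicate 2, the pool in which the host genes were lowest. Summed endothelial markers were 2452 to 3041 in knockout and 2913 to 4774 in wild type, with 7 of 8 lower. Macrophage markers (5 of 8 higher) summed to 18932 to 26210 in knockout and 14585 to 23373 in wild type, and megakaryocyte markers (3 of 4 lower) to 3304 to 4608 in knockout and 3158 to 13161 in wild type. Granulocyte and mast cell markers (5 of 7 lower) summed to 1762 to 5242 in knockout and 2378 to 4349 in wild type. No marker was at 0 on any array, which does not show that each was detected. Pecam1, Tek, Cd163, Cpa3 and Mcpt8, all counted above, had both genotype means below the control level, as Cd34 did. Of these 51 genes limma called 0 as changed with or without the trend, where 0.44% of all genes were called with it and 0.044% without it. An unadjusted p under 0.05 without the trend was reached by 13 of the 51, and by 8.9% of all genes.

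Other genes that host snoRNAs had smaller median differences. Of 15 further non-coding hosts 11 were measured, 7 higher and 4 lower, with a median of 0.08 where that of all genes was -0.08. Snhg4 was the only one of them without overlap, at 948.6, 773.7 and 625.5 in knockout and 579.5, 556.6 and 397.1 in wild type, a difference of 0.61 (SE 0.27). Over all genes, 16.9% had groups without overlap in either direction, and 7.02% with knockout higher. Snhg7 (0.46), Snhg10 (0.46) and Snhg11 (0.36) overlapped, while Zfas1, the host at the Znfx1 locus, differed by -0.03 and Snhg18 by -0.20. After median centring, Zfas1 was at 0.08 and 10 of the 11 were higher.

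Among protein-coding hosts other than ribosomal protein genes, 16 of 19 were higher and 3 lower, with a median of 0.21. In 8 of the 19 the groups did not overlap, each time with knockout higher, against 7.02% of all genes. After quantile normalization this held in 5 of the 19, against 7.78% of all genes. Eef1b2, a subunit of the translation elongation factor that recharges eEF1A, read 17315.5, 15862.1 and 17395.9 in knockout and 12478.9, 8769.9 and 13637.6 in wild type, a difference of 0.56 (SE 0.25). Eef2, the translocation factor of the ribosome, differed by 0.47 (SE 0.22), the splicing factor gene Prpf39 by 0.50 (SE 0.25), and Nop56, a core protein of box C/D particles, by 0.32 (SE 0.19). In each of these the genotypes were apart. Of 25 ribosomal protein genes that host snoRNAs, 11 were measured, 7 higher and 4 lower, around a median of 0.16. Rpl12 differed by 0.75 (SE 0.23) and Rpl37 by 0.66 (SE 0.29), against -0.39 (SE 0.21) for Rpl39 and -0.29 (SE 0.20) for Rps2. Rps2 and 5 others of the 11 exceeded 50% of the highest signal of an array. Rpl12 reached at most 1.17% of it, Rpl37 4.16% and Rpl39 2.21%, so their differences come from far dimmer probe sets.

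**Figure D4:**
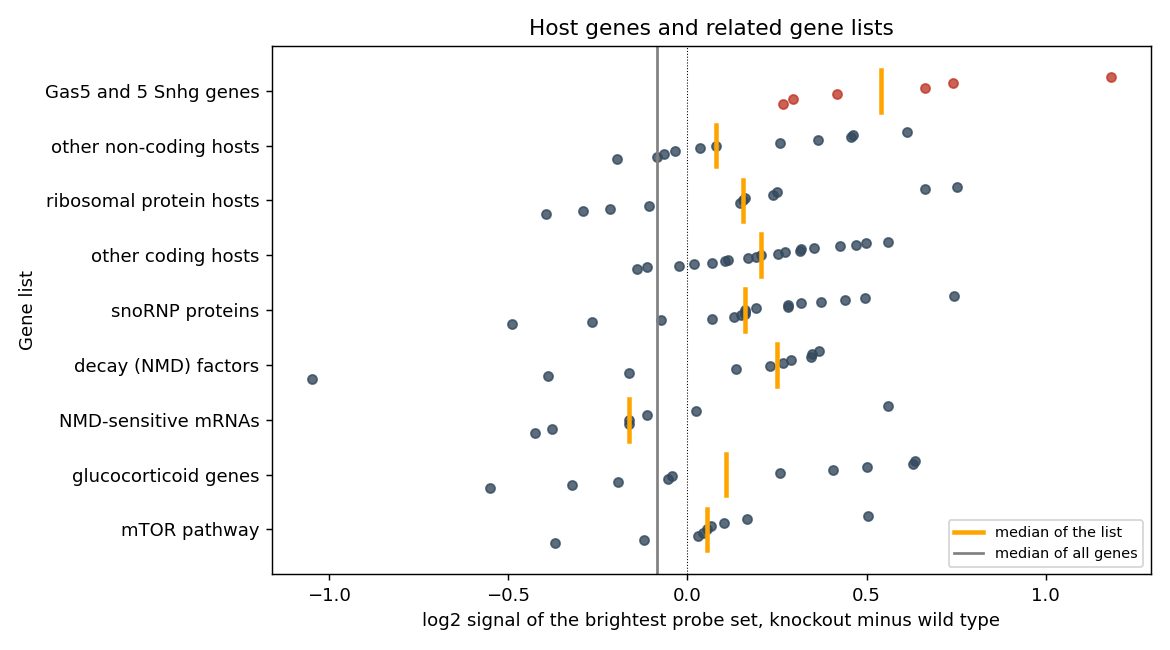
Difference in log2 signal of the brightest probe set of each gene, knockout minus wild type, for Gas5 and the 5 Snhg genes (red) and 8 related gene lists (dark blue), with list medians in orange and the median of all genes, -0.08, in grey. The hosts described here, picked with their difference known, have a median of 0.54, and the other lists lie between -0.16 and 0.25.

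Proteins that assemble on snoRNAs were higher in 14 of 17 genes, with a median of 0.16. Fbl, the methyltransferase fibrillarin of box C/D particles, read 4749.1, 4012.0 and 3819.6 in knockout and 3627.4, 2824.2 and 3265.3 in wild type, a difference of 0.37 (SE 0.22) without overlap. Naf1 (0.74, SE 0.39), an assembly factor of box H/ACA particles, and Ruvbl1 (0.50, SE 0.26), a helicase that helps to load box C/D proteins, overlapped. Dkc1, the pseudouridine synthase of the H/ACA particle, differed by 0.07.

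The decay pathway that clears the spliced RNA of hosts such as Gas5 was followed through its factors and its other substrates. Of 15 genes for decay and exon junction factors 10 were measured, 7 higher and 3 lower, with a median of 0.25. Rbm8a, an exon junction core protein, differed by 0.35 (SE 0.20) and the kinase gene Smg1 by 0.29 (SE 0.21), both without overlap, Casc3 by 0.37 (SE 0.29) and Smg9 by -0.39 (SE 0.25), both with overlap. Of the 3 other Smg1 probe sets, 1 was lower in knockout. The helicase gene Upf1, central to the pathway, differed by 0.13. Of 7 mRNAs known to be cleared by this pathway, 2 were higher and 5 lower, with a median of -0.16. Gadd45a, a stress-induced growth arrest gene, read 6664.3, 8338.2 and 7286.8 in knockout and 9824.4, 9613.8 and 9419.2 in wild type, a difference of -0.38 (SE 0.20). Ddit3, a stress transcription factor, differed by 0.56 (SE 0.27), Gadd45b by -0.43 (SE 0.29) and Smg5, itself a decay factor, by -0.16 (SE 0.19). Gadd45b was lower in knockout only at its brightest probe set. As deposited, the groups did not overlap in Ddit3, which was higher in knockout as Gas5 was, nor in Gadd45a and Smg5, which were lower. Over all genes, 16.9% had groups without overlap in either direction. Whether decay of the host RNA differed was not tested. After median centring, 0 of these 7 mRNAs had groups without overlap, and the list's median was -0.05. On that scale, 9.02% of all genes had every knockout array above every wild type array, and 6.63% had every knockout array below.

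Genes of mTOR complex 1 and of its control of pyrimidine-tract mRNAs were 7 higher and 2 lower of 9 measured, around a median of 0.05. Eif4ebp1, the translation repressor that mTOR phosphorylates, read 1801.8, 1776.3 and 2058.5 in knockout and 1309.6, 1382.1 and 1276.6 in wild type, a difference of 0.50 (SE 0.19). Of its 2 other probe sets, 1 was lower in knockout. Larp1, the protein that binds the 5′ tract, read 6475.1, 7282.4 and 5470.8 in knockout and 7829.5, 7838.0 and 9069.0 in wild type, a difference of -0.37 (SE 0.22). Neither gene's groups overlapped, where 16.9% of all genes had groups without overlap in either direction. After median centring, however, 0 of the 9 genes had every knockout array below wild type, against 6.63% of all genes. Tsc2 (0.17) and Rptor (-0.12) overlapped. The glucocorticoid receptor gene Nr3c1 differed by 0.41 (SE 0.23) with overlap, and 2 of its 5 other probe sets were lower in knockout. Of 10 genes in its list, the receptor and genes it induces, 5 were higher and 5 lower, with overlap in all 10. Over all genes, 16.9% had groups without overlap in either direction. After median centring, 7 of the 10 were higher, 3 of them without overlap, against 9.02% of all genes on that scale. As deposited, Per1 of this list differed by 0.63 (SE 0.31), Ddit4 by 0.63 (SE 0.39) and Errfi1 by -0.55 (SE 0.36). Over the 90 genes of these 8 lists, limma called 0 with or without the trend. An unadjusted p under 0.05 was reached by 4 of the 90 without it, against 8.9% of all genes, and by 18 with it, against 11% of all genes. The smallest adjusted p values were 0.45 for Rpl12 without the trend and 0.201 for Eif4ebp1 with it.

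The protein-coding genes next to or overlapping the 6 hosts differed in either direction, with 8 of 13 measured neighbours higher in knockout and 9 of 13 above the control level. None was called by limma with or without the trend, where 0.44% of all genes were called with it and 0.044% without it. An unadjusted p under 0.05 without the trend was reached by 1 of the 13, near the 8.9% of all genes that did so. This was Sgk3, a kinase gene beside Snhg6, at 0.73 (SE 0.22) without overlap. Rcc1, the chromatin-bound exchange factor for Ran and the neighbour of Snhg3, read 1161.1, 1064.1 and 1062.0 in knockout and 952.4, 505.2 and 766.9 in wild type, a difference of 0.61 (SE 0.29). On the 2 sides of Snhg1, Slc3a2, an amino acid transporter chain, differed by 0.13 (SE 0.19) and Wdr74, a ribosome assembly gene, by 0.13 (SE 0.23). Serpinc1, the antithrombin gene of hepatocytes near Gas5, differed by -0.81 (SE 0.35), reading 1206.6 to 1658.3 in knockout and 1866.1 to 3982.2 in wild type, the highest in replicate 2. Trnau1ap, next to Snhg12, differed by 0.48 (SE 0.27).

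To find the profiles most like that of Gas5, the log2 values of 11173 other genes with both genotype means above the control level were centred on their own mean over the 6 arrays and compared by the root mean square difference. The nearest were Col5a1 (0.0727 log2), a fibrillar collagen gene, 3110040M04Rik (0.1), Dgkz (0.102), a diacylglycerol kinase gene, Ssh1 (0.119), a cofilin phosphatase gene, Tmcc3 (0.121) and Trp53inp1 (0.123), a p53-induced autophagy gene. Each was higher in all knockout than in all wild type arrays, by 1.08 to 1.26. The other snoRNA hosts were less like Gas5 than these: Snhg8 ranked 147 (0.302 log2), Snhg12 549, Snhg6 661, Snhg1 1152 and Snhg3 2605. All of these profiles share the same 6 arrays and the same genotype split. They were centred but not scaled, so the measure follows in large part the size of the difference between genotypes. The hosts were picked with that difference known, and the ranks support nothing beyond it.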

How the data were processed

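RNA of 6 pools was labelled with biotin and hybridised to 1 array each, per the labels' protocols. The deposited table holds a linear intensity for each of 45101 probe sets and array. RMA and Partek are listed, without versions, per the submitters' processing notes, and the sources used here do not give how the arrays were scaled. The mean intensity after trimming 2% of values at each end was 497.4 to 497.7 in knockout and 497.3 to 497.4 in wild type arrays. Such near-equal means on a linear scale are what a global scaling of each array gives, which RMA does not apply, and which procedure made the deposited values was not settled. Sample titles gave the genotype and the replicate number. Replicates are separate pools of embryos, and their number limits the precision.

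After 64 control probe sets were left out, log2 of the deposited intensity, with no pseudocount, was fitted with lmFit and eBayes of limma 3.58.1 (R 4.3.3), knockout against wild type over all 6 arrays, with Benjamini-Hochberg adjustment over 45037 probe sets and a threshold of 0.05. A fit with a mean-variance trend is given beside it, because dim probe sets vary more. For gene lists, markers, neighbours and profiles the probe set of a gene that was brightest on average stood for the gene, and adjustment ran over 18193 genes. Standard errors come from the probe set fit without the trend. Other probe sets of a gene could differ in the opposite direction, as for Snhg10 and Rptor. Names came from the annotation GEO holds for the platform (34945 with 1 symbol, 932 with several, 9160 with none), and of those with 1 symbol 34741 matched RefSeq by Entrez ID, with 0 symbols changed. The control level is the 95th percentile of signal over 27 probe sets that read Bacillus subtilis RNAs. The files name no genome build, so coordinates are those of the RefSeq promoter windows only, with 5 of the 6 genes matched.

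Named are all member probe sets, Stat5a and Stat5b, up to 4 genes a list by smallest p in the fit with the trend, and the 6 genes with the most similar profile; Zfas1, Snhg18, Dkc1, Upf1 and the neighbours were chosen after their values were seen. Members and lists were chosen with earlier results of these data known. Alternatives were quantile normalization, median centring, 32 added before log2, the dimmer 50% left out, weights per array, a block for the replicate number, and each array left out. On simulated data for this comparison (45037 probe sets), the fit with the trend recovered 64% of probe sets changed by 1 and 95% of those changed by 2 on the log2 scale, with 16 false calls, and the fit without it recovered 0% of both, with 0 false calls. The simulated spread was set by mean signal alone, which is what the trend assumes. The simulation therefore cannot show which fit is the better one for the measured data.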

Additional observations from a re-analysis of the deposited data

How the results depend on the processing

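The number of probe sets called was 0 on the settings as designed and 0 after quantile normalization, median centring, array weights, and in each fit without 1 array. It was 5 with 32 added before log2, 20 without the dimmer probe sets, 70 with the mean-variance trend and 80 with the trend and 1 probe set per gene. With the trend it was 18, 13 and 8 without knockout replicate 1, 2 and 3, and 7, 20 and 78 without the wild type replicates of the same numbers, a range of 7 to 78. Host gene probe sets called, 0 as designed, were 2 with the trend, both Gas5, and 1 with the trend and 1 probe set per gene together. With the trend and 1 array left out they were 0 to 2: 0 when any knockout pool or the first wild type pool was left out, 1 when wild type replicate 2 was, and 2 when wild type replicate 3 was. The Gas5 difference of 1.18 ran from 1.15 to 1.23 over the arrays left out and was 1.29 after median centring. The median difference of the host genes ran from 0.44 to 0.61 over the arrays left out, and was 0.61 without probe sets ending in _x_at, _s_at or _a_at and 0.54 with 1 probe set per gene. Of 144 further values of single probe sets under these settings, 0 changed sign and 144 moved by less than the spread between replicates. Those without the dimmer probe sets or with the replicate block could not move, since neither changes a difference of means here. Same-numbered samples deviated together with correlations of 0.0912, 0.112 and 0.0924, each sample correlating best with its own number. Deviations were taken from the mean of each genotype, so these correlations depend on one another. They are weak, and at most a hint from the data and not the design. With the replicate number as a block 0 probe sets were called, or 61 with the trend, of which 2 were host gene probe sets. For the 8 related gene lists, quantile normalization and median centring changed the sign of no median. Protein-coding hosts other than ribosomal protein genes with every knockout array above wild type, 8 of 19 as deposited, were 5 after quantile normalization and 7 after median centring. The share of all genes was 7.02%, 7.78% and 9.02% in the same order.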
